A study of Mus musculus with 10 samples.

Results

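The Hox cluster genes of the mouse were followed in kidney progenitors taken at birth, at E11.5 and after culture. All non-control probes whose gene name was Hox followed by a cluster letter from a to d and a number were taken, which gave 39 genes in 4 clusters, measured by 45 of the 55681 probes on the array (34607 gene names). Each of 5 groups was measured on 2 single-colour Agilent arrays, 10 arrays in all. P0 progenitors were newborn kidney cells sorted as Six2-GFP-positive. P0 non-progenitors were their Six2-GFP-negative counterparts. E11.5 progenitors were Six2-GFP-positive cells sorted at E11.5, and such cells grown in conditioned medium for 8 or 19 days made up the culture groups. All groups, the GFP-negative cells included, came from Six2-GFP transgenic mice on a C57BL6J/ICR background, so that no group lacked the transgene. The labels do not say whether replicates came from separate litters or cultures, or whether cultured cells were sorted again. The p-values therefore measure only the spread between these arrays, which may be technical. The sort rests on a GFP reporter, so P0 non-progenitors are a mixture of every other kidney cell type, and cultured cells are known as progenitors only by their source. For the 4 arrays at birth the labels say P0, which is followed here, but the file naming says E19.5.

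Hox proteins are homeodomain transcription factors that tell cells where they lie along the body. Their genes sit in clusters in which the order on the chromosome follows the order in which they are switched on in time and along the head-to-tail axis. In the kidney, the Hox11 paralogs act with Eya1 and Pax2 to switch on Six2 and Gdnf in the metanephric mesenchyme, and mice that lack them form no kidney.

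Values are log2 intensities minus the 75th percentile of the same array, so that 0 is the brightness of that percentile and each unit is a doubling. Values near -6 are at the floor of the scanner software and have no order among themselves. Of the non-control spots, 60.4% to 69.8% were well above background on each array, and the 75th percentile lay between 220.4 and 340.6 intensity units. The 6 arrays of uncultured cells shared slide 1 with the first 8-day array, while the second 8-day array shared slide 2 with the 19-day arrays. Six2 itself read 4.27 and 4.11 in P0 progenitors, -2.26 and -4.55 in P0 non-progenitors, 4.70 and 4.82 in E11.5 progenitors, 5.21 and 4.60 in 8-day culture and 1.06 and 2.31 in 19-day culture. Of the 39 Hox genes, 23 were well above background on all 10 arrays and 35 passed the filter for testing. Hoxb1, Hoxb13, Hoxc12 and Hoxc13 were well above background on both arrays of no group and were not tested. Hox replicates differed by a root mean square of 0.69 in P0 progenitors, 1.35 in P0 non-progenitors, 1.61 in E11.5 progenitors, 1.72 in 8-day culture and 1.81 in 19-day culture. With 2 arrays a group, their number limits the precision.

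Promoter windows of 250 bases before to 50 after the gene start were held for 22 Hox genes (24 windows, RefSeq on GRCm38.p6). Those of the HoxB genes that were tested are shown with Hoxc4 and Hoxd12, which fell in 19-day culture. CG pairs, the sites of DNA methylation, are in capitals, and the 4 windows run from chr11:96318017-96318316 (plus strand) for Hoxb4, chr11:96281655-96281954 (plus strand) for Hoxb8, chr15:103034145-103034444 (plus strand) for Hoxc4 and chr2:74674763-74675062 (plus strand) for Hoxd12.
Hoxb4: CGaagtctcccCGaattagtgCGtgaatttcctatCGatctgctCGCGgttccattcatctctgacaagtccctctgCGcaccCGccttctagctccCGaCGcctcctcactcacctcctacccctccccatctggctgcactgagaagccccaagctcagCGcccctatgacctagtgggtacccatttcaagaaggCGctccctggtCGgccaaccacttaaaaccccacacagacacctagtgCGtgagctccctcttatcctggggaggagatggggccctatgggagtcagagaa
Hoxb8: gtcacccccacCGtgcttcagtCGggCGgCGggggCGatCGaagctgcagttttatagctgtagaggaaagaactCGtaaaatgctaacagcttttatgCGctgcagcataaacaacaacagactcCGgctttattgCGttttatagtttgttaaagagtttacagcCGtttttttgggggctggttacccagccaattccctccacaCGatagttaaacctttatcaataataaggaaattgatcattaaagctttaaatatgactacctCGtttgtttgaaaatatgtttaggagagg
Hoxc4: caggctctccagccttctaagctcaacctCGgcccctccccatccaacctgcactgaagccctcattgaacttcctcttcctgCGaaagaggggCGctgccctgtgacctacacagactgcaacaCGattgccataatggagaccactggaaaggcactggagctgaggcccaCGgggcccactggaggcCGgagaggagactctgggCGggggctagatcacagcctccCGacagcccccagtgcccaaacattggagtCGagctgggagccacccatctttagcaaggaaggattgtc
Hoxd12: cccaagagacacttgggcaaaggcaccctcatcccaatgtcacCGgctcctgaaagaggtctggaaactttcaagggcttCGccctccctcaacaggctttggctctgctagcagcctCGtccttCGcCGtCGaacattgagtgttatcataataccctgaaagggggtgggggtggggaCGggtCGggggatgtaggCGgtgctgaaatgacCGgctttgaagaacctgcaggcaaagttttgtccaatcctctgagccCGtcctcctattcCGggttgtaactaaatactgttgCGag
Hox windows held a median of 14.5 CG pairs, against 7 over all 32851 windows of the same length. Hoxb4 had 14, Hoxb8 13, Hoxc4 9 and Hoxd12 13. The letters TTTATNG, a core bound by posterior Hox and caudal proteins, were present on either strand in 2 of 24 Hox windows (8.33%), against 10.9% of all windows, with 3 matches in Hoxb8 and none in the other windows shown. The Hox and Pbx core TGATNNAT was present in 4 of 24 (16.7%), against 8.85% of all windows, with 1 match in Hoxb8.

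**Figure D1:**
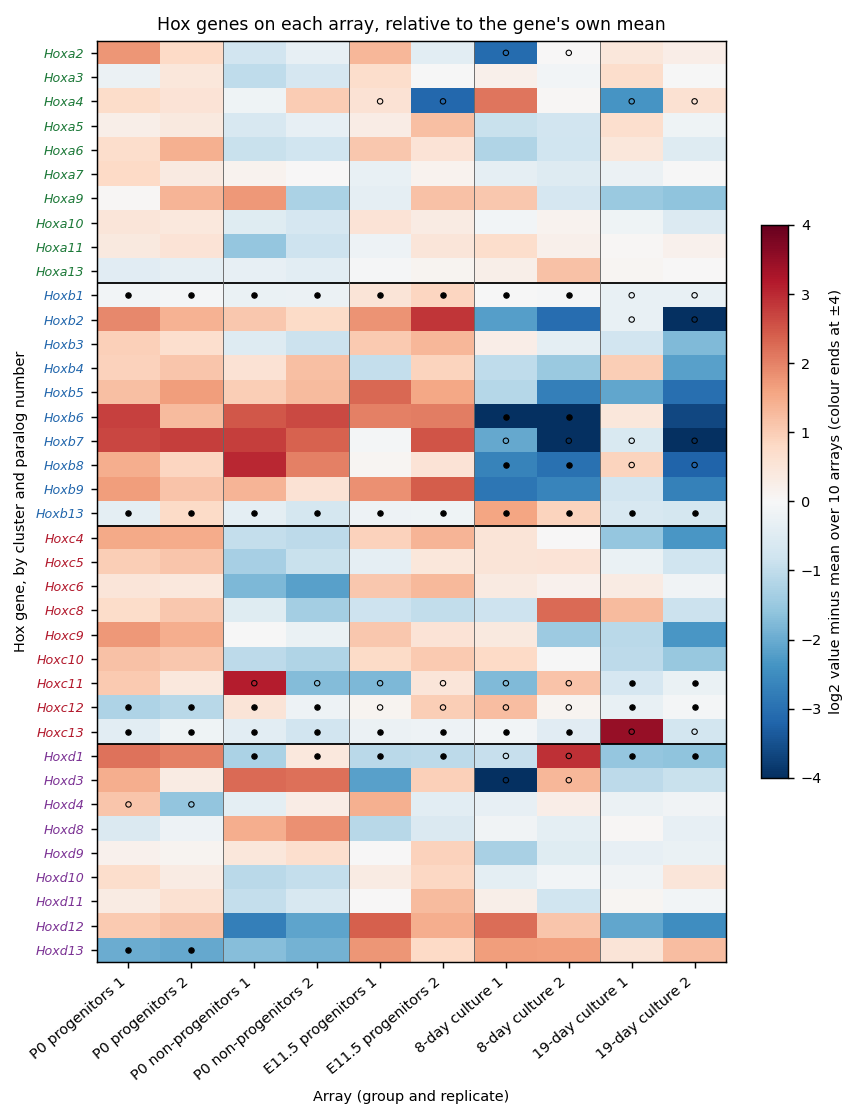
Colour shows the log2 value of 38 Hox genes (rows, gene names coloured by cluster: A green, B blue, C red, D purple) on each of 10 arrays (columns) minus the gene's mean over the arrays. Filled dots mark groups in which the gene was well above background on 0 of 2 arrays, open dots 1 of 2. Most tested HoxB genes are blue in both 8-day arrays and in replicate 2 of the 19-day culture.

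In P0 progenitors, against P0 non-progenitors, 10 of the 35 tested Hox genes passed, 9 of them higher and 1 lower. Over all 26276 tested genes 8.4% passed, 4.24% of them higher and 4.15% lower, out of the same total. The median difference of the 35 genes was 0.75, against 0.10 over all genes. Cluster C led, with 4 of 7 genes higher and a median of 2.14. Cluster A had 3 of 11 higher, cluster D 2 of 9 higher and 1 lower, and none of the 8 HoxB genes passed. The groups did not overlap, with P0 progenitors higher, for 19 of 35 genes, against 33.1% of all genes.

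The HoxC genes that rose lay at the anterior end, the middle and the posterior part of the cluster. Hoxc4, at the anterior end, read 5.91 and 5.86 in P0 progenitors, against 3.43 and 3.35 in P0 non-progenitors (5.64-fold higher, log2 difference 2.50 ± 0.29 SE, limma adjusted p = 0.00332). Hoxc6, which takes part in patterning the thoracic skeleton, read 3.25 and 3.21 in P0 progenitors, against 0.97 and 0.62 in P0 non-progenitors (5.41-fold higher, log2 difference 2.44 ± 0.22 SE, limma adjusted p = 0.00152). Hoxc10, a lumbar gene expressed in metanephric mesenchyme, read 6.15 and 6.06 in P0 progenitors and 3.92 and 3.77 in P0 non-progenitors (log2 difference 2.26 ± 0.27 SE, limma adjusted p = 0.00383). In all 3 genes the replicates lay close together and the groups were far apart. Hoxc5 read 0.76 and 0.87 in P0 progenitors, against -1.55 and -1.10 in P0 non-progenitors (4.41-fold higher, log2 difference 2.14 ± 0.35 SE, limma adjusted p = 0.0124). Hoxc8 and Hoxc9 had differences of 1.83 ± 1.04 and 1.72 ± 0.62 SE, with no overlap between the groups, and did not pass (limma adjusted p = 0.380 and 0.156). Hoxc11 read -3.30 and -3.91 in P0 progenitors, against -1.20 and -6.06 in P0 non-progenitors, so that its groups overlapped.

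In cluster A the genes that rose were Hoxa6, Hoxa10 and Hoxa11. Hoxa11, a Hox11 paralog needed for kidney formation, read 4.10 and 4.24 in P0 progenitors, against 2.15 and 2.88 in P0 non-progenitors (3.15-fold higher, log2 difference 1.66 ± 0.32 SE, limma adjusted p = 0.0204). Hoxa10, a lumbar gene also known for its role in the uterus, read 3.90 and 3.84 in P0 progenitors, against 2.92 and 2.75 in P0 non-progenitors (log2 difference 1.04 ± 0.19 SE, limma adjusted p = 0.0168). Hoxa6 read 0.98 and 1.70 in P0 progenitors, against -0.62 and -0.52 in P0 non-progenitors (3.77-fold higher, log2 difference 1.91 ± 0.41 SE, limma adjusted p = 0.0312). None of the 3 overlapped between groups. Of the other HoxA genes, Hoxa2, Hoxa3, Hoxa5 and Hoxa7 also lay wholly above P0 non-progenitors, with differences of 0.52 to 1.82, and did not pass.

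HoxD genes went in both directions. Hoxd12, best known from limb and hindgut, read 0.79 and 0.94 in P0 progenitors, against -2.97 and -2.35 in P0 non-progenitors (11.6-fold higher, log2 difference 3.53 ± 0.47 SE, limma adjusted p = 0.00614). Hoxd10, a lumbar gene, read 2.15 and 1.78 in P0 progenitors, against 0.36 and 0.48 in P0 non-progenitors (2.93-fold higher, log2 difference 1.55 ± 0.30 SE, limma adjusted p = 0.0212). Hoxd8, a central gene of the cluster, read -0.17 and 0.20 in P0 progenitors, against 1.88 and 2.25 in P0 non-progenitors (4.14-fold lower, log2 difference -2.05 ± 0.30 SE, limma adjusted p = 0.00863). Hoxd8 was thus the 1 Hox gene called higher in P0 non-progenitors. Its neighbour Hoxd9 read 4.92 and 4.87 in P0 progenitors, against 5.20 and 5.44 in P0 non-progenitors, and did not pass (limma adjusted p = 0.553). Hoxd11, the HoxD member of the Hox11 paralogs, read 4.31 and 4.60 in P0 progenitors, against 3.01 and 3.33 in P0 non-progenitors. Its groups did not overlap, and it did not pass (log2 difference 1.28 ± 0.45 SE, limma adjusted p = 0.144).

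No HoxB gene was called by limma between the sorted fractions at birth, and 1 of 8 had an unadjusted p under 0.05. Their differences ran from -1.34 for Hoxb8 to 1.50 for Hoxb3, with a median of 0.23. Hoxb7, whose regulatory sequence is widely used to mark the ureteric bud, read 1.72 and 1.80 in P0 progenitors and 1.83 and 1.41 in P0 non-progenitors. Hoxb5 read 0.75 and 1.23 in P0 progenitors and 0.53 and 0.82 in P0 non-progenitors. Of the HoxB genes, Hoxb3 came closest to the threshold (0.64 and 0.36 in P0 progenitors, against -0.82 and -1.18 in P0 non-progenitors, limma adjusted p = 0.0653), but its second probe had a difference of 0.17.

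The GFP-negative cells at birth carried markers of many cell types, and which of these cells held the Hox RNA was not tested. In bulk samples fewer cells of a type and less RNA per cell cannot be told apart. In P0 progenitors, against P0 non-progenitors, 6 of 6 endothelial, 7 of 7 tubule and podocyte, 7 of 8 stromal and 6 of 9 ureteric markers were lower, and 5 of 8 nephron progenitor markers were higher. Over all genes 4.15% were called lower and 4.24% higher. Six2, among the progenitor markers that were higher, is the gene whose reporter set the sort. The mean log2 value of the endothelial markers was -3.48 and -2.66 in P0 progenitors, against 2.04 and 1.95 in P0 non-progenitors, and that of the tubule and podocyte markers was -1.07 and -1.78, against 2.92 and 3.17. The stromal markers averaged -0.99 and -1.31 in P0 progenitors, against 3.29 and 3.23 in P0 non-progenitors, and the ureteric markers -1.80 and -3.42, against 1.13 and 0.63. When 1 of the 4 arrays was left out, fewer Hox genes passed, and fewer of all genes did too. The log2 difference then ranged from 1.55 to 2.27 for Hoxa6, 0.96 to 1.12 for Hoxa10 and 1.37 to 1.73 for Hoxd10. Hoxc4, Hoxc6 and Hoxc10 passed in all 4 of these fits, and Hoxa6, Hoxa10 and Hoxd10 in none.

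**Figure D2:**
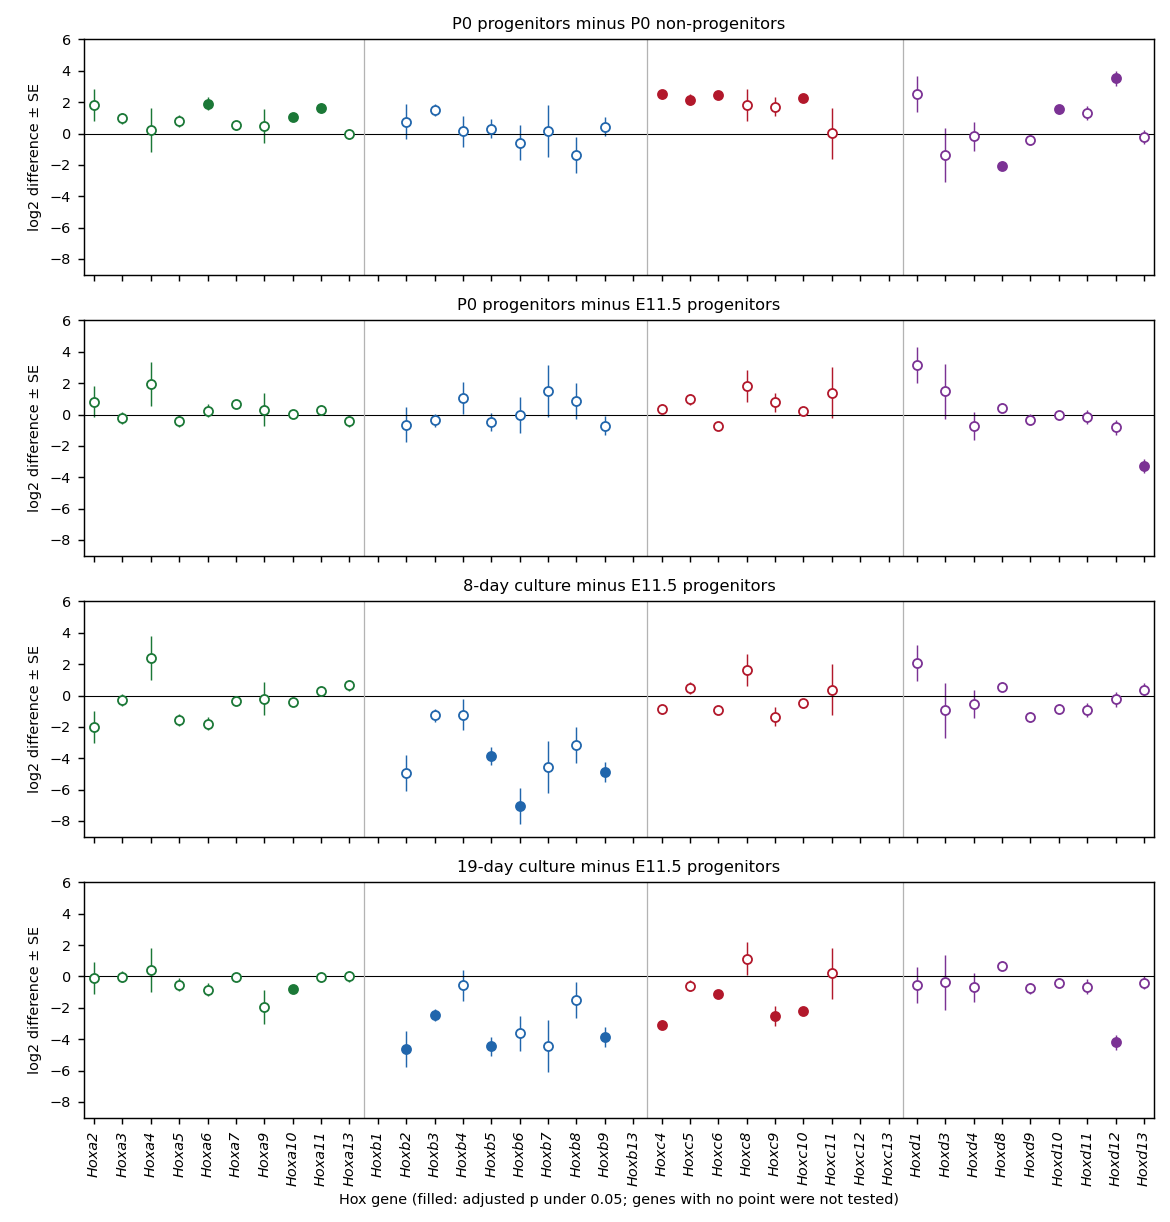
The log2 difference ± SE of 34 tested Hox genes is plotted in cluster order for 4 comparisons, with cluster A in green, B in blue, C in red and D in purple. Filled points passed (adjusted p under 0.05). In both cultures, minus E11.5 progenitors, the 8 HoxB points lie below 0.

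Progenitors at birth differed from progenitors at E11.5 in the call of a single Hox gene. In this comparison 1 of 35 Hox genes passed, which was lower in P0 progenitors, against 3.94% of all genes (2.03% higher and 1.91% lower), and the median difference was 0.23, against -0.12 over all genes. The groups did not overlap for 10 Hox genes higher and 6 lower in P0 progenitors, against 20.1% and 32.4% of all genes. The gene that passed was Hoxd13, the last gene of its cluster, which patterns digits and the end of the gut. It read -4.40 and -4.47 in P0 progenitors, against -0.66 and -1.62 in E11.5 progenitors, and was well above background on neither P0 progenitor array. The fall was at least 8.80-fold (log2 difference -3.29 ± 0.43 SE, limma adjusted p = 0.0106). Such bounds set the dim group no lower than each array's faintest probe above background. Hoxd13 also read -4.11 and -4.30 in P0 non-progenitors, so that the low level at birth was shared by both fractions. Its call was lost without either P0 progenitor array, with log2 differences of -3.77 to -2.81 in the 4 fits without 1 array.

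The Hox11 and Hox10 paralogs showed no call between birth and E11.5. Hoxa11 read 4.10 and 4.24 in P0 progenitors, against 3.50 and 4.20 in E11.5 progenitors (log2 difference 0.32 ± 0.32 SE). Hoxd11 read 4.31 and 4.60 in P0 progenitors, against 3.99 and 5.23 in E11.5 progenitors (log2 difference -0.16 ± 0.45 SE). A second Hoxd11 probe, which was not tested, read 2.40 and 2.59 in P0 progenitors, against 3.48 and 4.64 in E11.5 progenitors (log2 difference -1.56). The Hoxd11 probes thus disagreed on the size of the change. Hoxa10 had a difference of 0.02 ± 0.19 SE and Hoxc10 of 0.23 ± 0.27 SE. A p that misses the threshold does not show that these levels were equal. Among genes that did not pass, Hoxd1, an anterior gene, was well above background on both P0 progenitor arrays, at -3.10 and -3.25, and on neither E11.5 array (limma adjusted p = 0.191). Hoxc6 read 3.25 and 3.21 in P0 progenitors, against 3.86 and 4.07 in E11.5 progenitors, without overlap (limma adjusted p = 0.121).

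In culture the first calls were in cluster B. After 8 days, against E11.5 progenitors, 3 of 35 Hox genes passed and all 3 were lower HoxB genes, while 2.04% of all genes were called lower, 2.77% higher and 4.81% in either direction. The median difference was -4.21 for the 8 HoxB genes, -0.34 for cluster A, -0.51 for cluster C, -0.54 for cluster D and 0.02 over all genes. All 8 HoxB genes read lower on both 8-day arrays than on either E11.5 array, a pattern that 21% of all genes showed. In the other clusters it held for 4 of 11 HoxA, 3 of 7 HoxC and 2 of 9 HoxD genes. No test set cluster B against the other clusters.

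The 3 genes called at 8 days, given here as E11.5, 8-day and 19-day values, come from the middle and the posterior end of cluster B. Hoxb5, known in mesenchyme of the lung and gut, read 1.83 and 1.09 in E11.5 progenitors, -1.60 and -3.19 after 8 days and -2.52 and -3.47 after 19 days. It fell 14.5-fold at 8 days (log2 difference -3.86 ± 0.58 SE, limma adjusted p = 0.0175) and 22.0-fold at 19 days (log2 difference -4.46 ± 0.58 SE, limma adjusted p = 0.00298). Hoxb5 was low on all 4 culture arrays. Hoxb9, which takes part in patterning the ribs, read 2.12 and 2.69 in E11.5 progenitors, -2.61 and -2.35 after 8 days and -0.48 and -2.43 after 19 days. It fell 29.6-fold at 8 days (log2 difference -4.89 ± 0.62 SE, limma adjusted p = 0.00985) and 14.5-fold at 19 days (log2 difference -3.86 ± 0.62 SE, limma adjusted p = 0.00631). Hoxb9, like Hoxb5, did not overlap E11.5 progenitors at either time.

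Hoxb6 read 1.96 and 1.98 in E11.5 progenitors, -5.13 and -4.97 after 8 days and 0.38 and -3.70 after 19 days. It was well above background on neither 8-day array, and its fall at 8 days was at least 72.0-fold (log2 difference -7.02 ± 1.14 SE, limma adjusted p = 0.0222). At 19 days it did not pass (log2 difference -3.63 ± 1.14 SE, limma adjusted p = 0.0710). The 8-day replicates of Hoxb6 were close together and the 19-day replicates were not. Its 8-day call was lost in all 4 fits without 1 array, with log2 differences of -7.10 to -6.94.

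Hoxb2 and Hoxb3, at the anterior end of the cluster and best known from the hindbrain, passed at 19 days. Hoxb2 read 1.59 and 2.66 in E11.5 progenitors, -2.40 and -3.23 after 8 days (log2 difference -4.94 ± 1.13 SE, limma adjusted p = 0.0535) and -0.48 and -4.49 after 19 days (log2 difference -4.61 ± 1.13 SE, limma adjusted p = 0.0307). It did not overlap E11.5 progenitors at either time, and its 19-day call was lost without either E11.5 array. Hoxb3, by the probe with the higher mean over the arrays, read 0.74 and 1.02 in E11.5 progenitors, -0.07 and -0.72 after 8 days (log2 difference -1.27 ± 0.40 SE, limma adjusted p = 0.128) and -1.10 and -2.07 after 19 days (log2 difference -2.47 ± 0.40 SE, limma adjusted p = 0.00673). A second Hoxb3 probe read 1.76 and 2.48 in E11.5 progenitors, -5.44 and -5.86 after 8 days and 0.00 and -3.19 after 19 days. The 2 Hoxb3 probes therefore disagreed on size and on order. The second probe was well above background on neither 8-day array and read at least 79.6-fold lower there than at E11.5. Its difference at 19 days was -3.71, and this probe was not tested. The probe used for the test was lowest at 19 days.

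Hoxb4, Hoxb7 and Hoxb8 did not pass at either culture time. Hoxb7 read -1.02 and 1.58 in E11.5 progenitors, -3.01 and -5.56 after 8 days and -1.55 and -6.74 after 19 days. Its differences of -4.56 ± 1.66 SE and -4.42 ± 1.66 SE were as large as those of called genes, but its replicates lay further apart. Hoxb8 read -3.47 and -3.01 in E11.5 progenitors, -6.22 and -6.53 after 8 days and -2.66 and -6.75 after 19 days. Hoxb4, which has a role in blood stem cells, read -1.61 and 0.25 in E11.5 progenitors, -1.66 and -2.14 after 8 days and 0.35 and -2.83 after 19 days, so that its 19-day arrays spanned the E11.5 ones.

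Replicates 1 and 2 of the 19-day culture differed in cluster B. Replicate 1 read higher for 8 of 8 HoxB genes, by 0.95 to 5.18 log2 units with a median of 3.59, and by more than 1 unit for 6 of them. Over all tested genes 8.07% read more than 1 unit higher in replicate 1. In clusters A, C and D the median difference between these replicates was 0.19, 0.51 and -0.05. Both 19-day arrays were on slide 2. Relative to the E11.5 mean, the HoxB median was -3.17 and -4.70 on the 8-day arrays and -1.91 and -4.88 on the 19-day arrays. What set these arrays apart in cluster B was not tested.

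**Figure D3:**
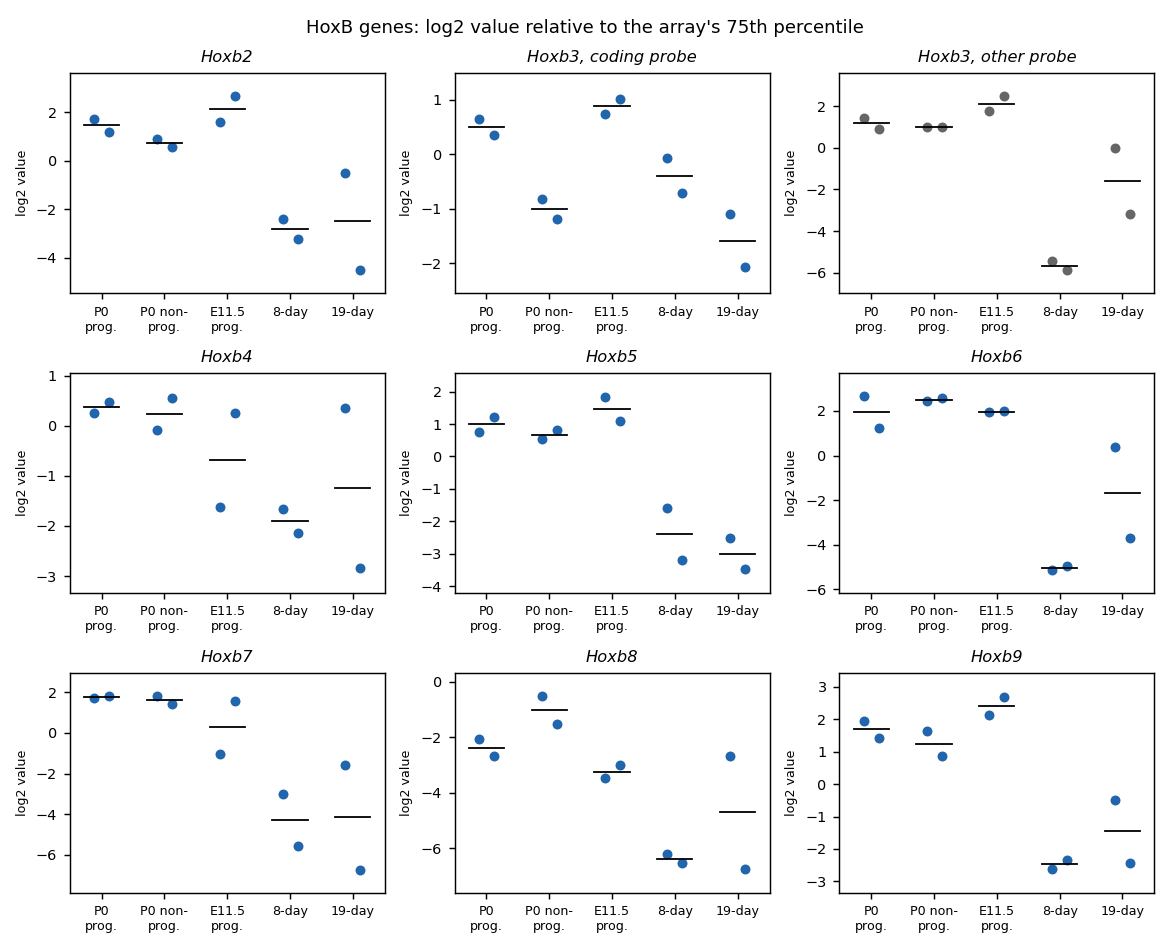
Log2 values (y axes) of the 8 tested HoxB genes and of the second Hoxb3 probe (grey) are plotted for each array in 5 groups, with black bars at group means. Both 8-day points lie below both E11.5 points in all 9 panels, and the 19-day points are far apart in Hoxb2, Hoxb4, Hoxb6, Hoxb7 and Hoxb8.

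After 19 days, against E11.5 progenitors, 10 of 35 Hox genes passed and all were lower, while 9.61% of all genes were called lower, 7.23% higher and 16.8% in either direction. The median difference was -0.64, against 0.00 over all genes. The genes were Hoxb2, Hoxb3, Hoxb5 and Hoxb9, then Hoxc4, Hoxc6, Hoxc9 and Hoxc10, then Hoxa10 and Hoxd12. No Hox gene was called higher in either culture. The groups did not overlap, with 19-day culture lower, for 16 of 35 genes, against 30% of all genes, and with 19-day culture higher for 1, against 29.9%.

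Hoxc4, Hoxc10 and Hoxd12 were the 3 of 35 genes called in 19-day culture against 8-day culture, all lower (5.41% of all genes were called lower, 2.67% higher and 8.08% in either direction). Hoxc4 read 5.32 and 5.75 in E11.5 progenitors, 4.91 and 4.41 after 8 days and 2.85 and 2.05 after 19 days. It was 8.48-fold lower at 19 days than at E11.5 (log2 difference -3.08 ± 0.29 SE, limma adjusted p = 0.000819) and was 4.62-fold lower at 19 days than at 8 days (log2 difference -2.21 ± 0.29 SE, limma adjusted p = 0.00572). Its groups did not overlap at any step. Hoxc10 read 5.74 and 6.02 in E11.5 progenitors, 5.77 and 4.97 after 8 days and 3.92 and 3.46 after 19 days. Its difference was -2.18 ± 0.27 SE for 19 days against E11.5 (limma adjusted p = 0.00244) and -1.68 ± 0.27 SE for 19 days against 8 days (limma adjusted p = 0.0119). Hoxd12 read 2.15 and 1.22 in E11.5 progenitors, 1.98 and 0.88 after 8 days and -2.31 and -2.71 after 19 days. It was 18.3-fold lower at 19 days than at E11.5 (log2 difference -4.20 ± 0.47 SE, limma adjusted p = 0.00169) and 15.4-fold lower than at 8 days (log2 difference -3.94 ± 0.47 SE, limma adjusted p = 0.00472). Without overlap, 11 Hox genes were lower and 7 higher at 19 days than at 8 days, against 27.5% and 25.5% of all genes. At 8 days Hoxc4, Hoxc10 and Hoxd12 had not passed against E11.5 progenitors, with log2 differences of -0.88 ± 0.29, -0.51 ± 0.27 and -0.25 ± 0.47 SE. With 1 array left out, the differences for 19 days against 8 days were -2.61 to -1.81 for Hoxc4, -2.08 to -1.28 for Hoxc10 and -4.49 to -3.39 for Hoxd12.

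Hoxa10, Hoxc6 and Hoxc9 fell by less or less evenly by 19 days. Hoxc6 read 3.86 and 4.07 in E11.5 progenitors, 3.13 and 2.96 after 8 days and 3.10 and 2.63 after 19 days (log2 difference at 19 days -1.10 ± 0.22 SE, limma adjusted p = 0.0141). Hoxa10 read 3.97 and 3.73 in E11.5 progenitors, 3.31 and 3.56 after 8 days and 3.25 and 2.87 after 19 days (log2 difference at 19 days -0.79 ± 0.19 SE, limma adjusted p = 0.0276). Hoxc9 read 2.92 and 2.39 in E11.5 progenitors, 2.23 and 0.38 after 8 days and 0.78 and -0.48 after 19 days (log2 difference at 19 days -2.51 ± 0.62 SE, limma adjusted p = 0.0324). With slide as a block the Hoxc9 difference was -0.66 ± 0.74 SE (limma adjusted p = 0.682). None of the 3 overlapped E11.5 progenitors at 19 days. The Hoxa10 call held in 5 of 10 alternative settings, and its difference ranged from -1.04 to -0.57 over all alternatives. It was lost under quantile normalization, with or without another background correction, and without the intensity trend of the fit. The Hoxc9 call was also lost without that trend. All 3 calls were lost without 19-day replicate 2. Hoxa10 also did not pass without E11.5 replicate 1, Hoxc6 without E11.5 replicate 2 and Hoxc9 without either E11.5 array.

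The Hox11 paralogs did not pass in culture. Hoxa11 read 3.50 and 4.20 in E11.5 progenitors, 4.42 and 3.91 after 8 days and 3.76 and 3.87 after 19 days (log2 difference at 19 days -0.03 ± 0.32 SE). Hoxd11 read 3.99 and 5.23 in E11.5 progenitors, 4.22 and 3.18 after 8 days and 4.06 and 3.89 after 19 days (log2 difference at 19 days -0.64 ± 0.45 SE), though a second Hoxd11 probe had a difference of -2.46. Hoxd13 read -0.66 and -1.62 in E11.5 progenitors, -0.74 and -0.78 after 8 days and -1.91 and -1.17 after 19 days, above the values of both fractions at birth. Hoxd8 read -0.69 and -0.15 in E11.5 progenitors, 0.26 and 0.03 after 8 days and 0.45 and 0.08 after 19 days. It was the 1 Hox gene whose 19-day arrays both lay above the E11.5 arrays, and it did not pass (limma adjusted p = 0.177). Other genes stood close to the threshold at 8 days, Hoxa6 with a difference of -1.81 ± 0.41 SE (limma adjusted p = 0.0535), Hoxc6 with -0.92 ± 0.22 SE (limma adjusted p = 0.0597), Hoxa5 with -1.59 ± 0.39 SE (limma adjusted p = 0.0648) and Hoxd9 with -1.36 ± 0.33 SE (limma adjusted p = 0.0619).

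**Figure D4:**
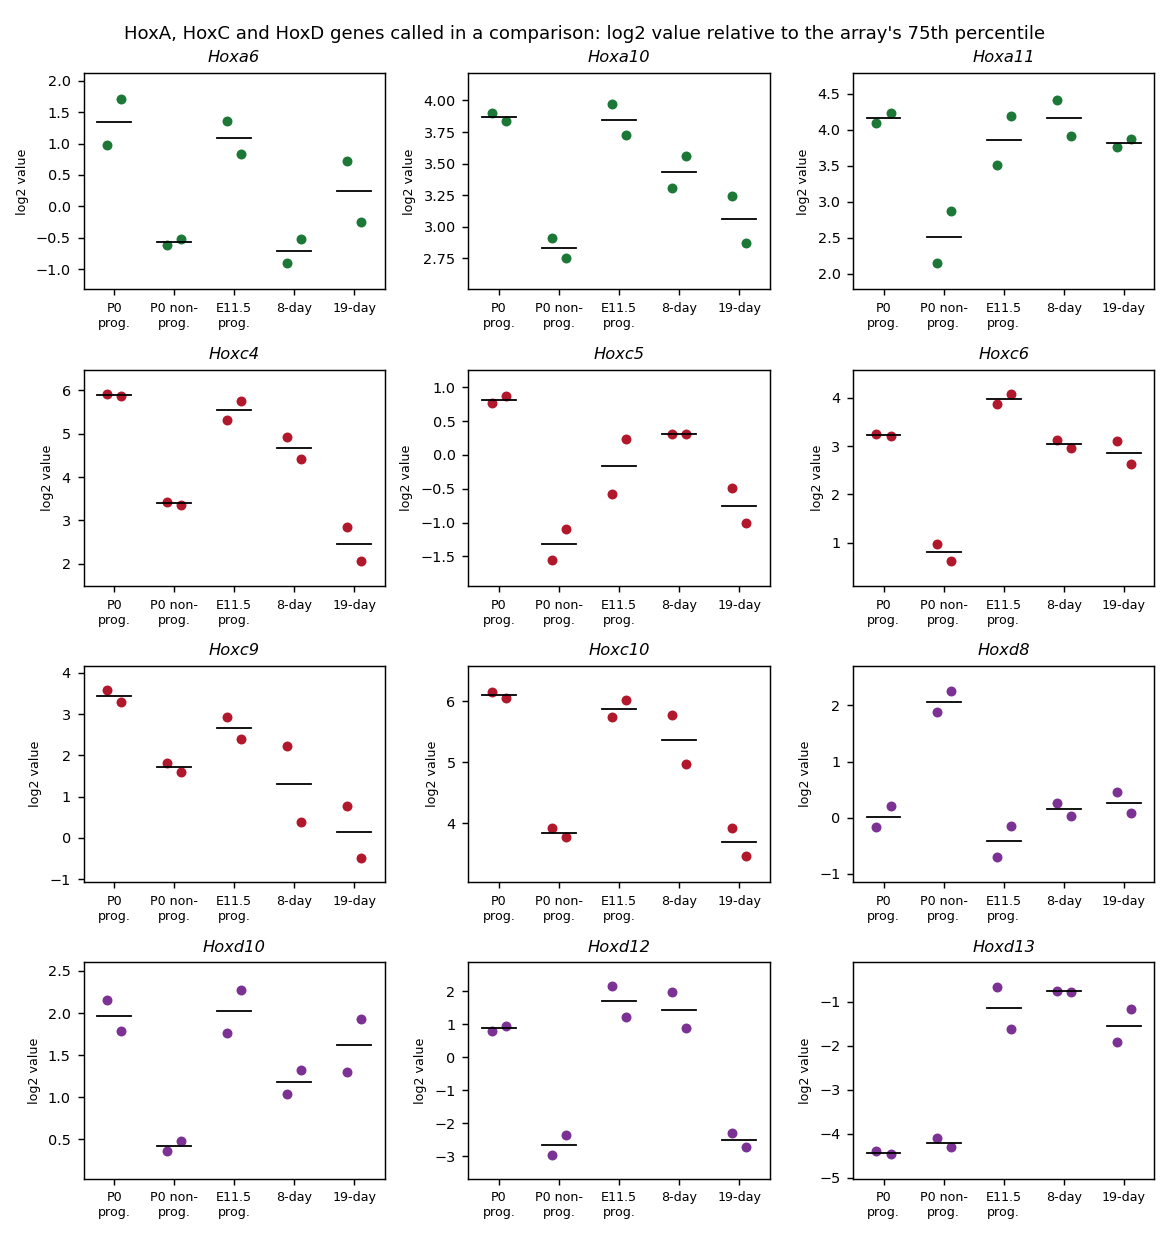
Log2 values (y axes, scaled per gene) of the 12 HoxA (green), HoxC (red) and HoxD (purple) genes called in at least 1 comparison are plotted for each array in 5 groups, with black bars at group means. Hoxc4, Hoxc10 and Hoxd12 are low in P0 non-progenitors and in 19-day culture, and Hoxd13 is low in both fractions at birth.

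Slide and culture time were partly joined. With slide as a block, 2 genes passed at 8 days against E11.5 progenitors (Hoxb5 and Hoxb9), 1 passed at 19 days (Hoxc4, log2 difference -2.58 ± 0.48 SE, limma adjusted p = 0.0346), and 4 passed for 19 days against 8 days. In that fit 629 of all genes passed at 8 days in place of 1264, 1491 at 19 days in place of 4423, and 1720 for 19 days against 8 days in place of 2123. The 19-day arrays share no slide with E11.5 progenitors, so this fit links them through the 8-day pair alone. The other 19-day differences under the block were -4.13 for Hoxb9, -3.78 for Hoxb2, -3.10 for Hoxd12, -2.87 for Hoxb5, -1.82 for Hoxb3, -1.38 for Hoxc10, -1.04 for Hoxa10, -0.94 for Hoxc6 and -0.66 for Hoxc9, with limma adjusted p between 0.0581 and 0.682. On the arrays of slide 1 alone, where 8-day replicate 1 stood against E11.5 progenitors, 4 Hox genes and 689 of all genes passed. The single 8-day array was there assumed to vary like the other groups. Hoxb2, Hoxb5, Hoxb6 and Hoxb9 had differences of -4.52, -3.06, -7.10 and -5.02 there. On slide 2 alone 19-day culture stood against 8-day replicate 2. Hoxc4, Hoxc10 and Hoxd12 had differences of -1.96, -1.28 and -3.39 there, and their calls did not hold. For 8 days against E11.5 progenitors, fits without 1 array gave differences of -4.65 to -3.06 for Hoxb5, -7.10 to -6.94 for Hoxb6 and -5.17 to -4.60 for Hoxb9.

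Markers of the progenitor state and of stroma moved in the same cultures, and their part in the Hox results was not tested. Over all genes 2.04% were called lower and 2.77% higher after 8 days, and 9.61% and 7.23% after 19 days. Of 8 nephron progenitor markers, 2 were lower after 8 days and 7 after 19 days, and their mean log2 value was 3.40 and 3.87 in E11.5 progenitors, 1.63 and 1.44 after 8 days and -0.85 and 0.03 after 19 days. Of 8 stromal and mural markers, 4 rose and 1 fell after 8 days, and 5 rose and 2 fell after 19 days. Their mean was -1.16 and -1.15 in E11.5 progenitors, -0.38 and -0.27 after 8 days and 2.27 and 1.72 after 19 days. Foxd1, the defining stromal transcription factor, was among those that fell. Endothelial markers averaged between -4.12 and -3.07 in E11.5 progenitors and cultures. Of 5 tested erythroid markers, 4 fell after 8 days and 4 after 19 days, with median differences of -4.28 and -4.01. The erythroid list averaged -0.48 and -0.84 in E11.5 progenitors, -3.87 and -4.28 after 8 days and -4.47 and -4.59 after 19 days.

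The partners and targets of the Hox11 paralogs in the kidney were a separate list of 10 genes, which shares Six2 and others with the progenitor markers. In P0 progenitors, against P0 non-progenitors, 4 of 10 rose (Six2, Pax2, Osr1 and Wt1), against 4.24% of all genes. The cells were sorted by a Six2 reporter, so the Six2 difference was set by the sort. After 8 days 1 fell and 1 rose, against 2.04% and 2.77% of all genes. After 19 days 6 fell and 1 rose, against 9.61% and 7.23% of all genes. Pax2, a Hox11 partner, read 4.56 and 4.20 in E11.5 progenitors, -1.41 and -1.04 after 8 days and -1.25 and -1.22 after 19 days (log2 difference at 8 days -5.60 ± 0.23 SE, limma adjusted p = 0.000175). Gdnf, the ligand that calls the ureteric bud, was at least 13.7-fold lower at 19 days (limma adjusted p = 0.0139). Hoxa11 and Hoxd11 showed no call in culture, though a second Hoxd11 probe had a difference of -2.46 at 19 days. Any link between the Hox11 genes and these changes was not tested. Eya1 and Six4 passed in no comparison.

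Noncoding RNA and unannotated regions inside the clusters were also measured. In cluster B, Gm53 read 1.57 and 0.38 in E11.5 progenitors, -6.32 and -2.57 after 8 days and -6.19 and -5.29 after 19 days. It fell by 5.42 ± 1.17 SE at 8 days (limma adjusted p = 0.0453) and was at least 50.4-fold lower at 19 days (limma adjusted p = 0.00879). A same-strand probe starting at 96125675, in a region that spans the Gm53 probe, fell by less and did not pass. Its log2 differences were -1.43 ± 0.50 SE at 8 days and -1.28 ± 0.50 SE at 19 days (limma adjusted p = 0.159 and 0.130). A probe between Hoxb5 and Hoxb4 at chr11:96173931-96173990 (mm9) read 2.54 and 2.09 in E11.5 progenitors, 0.00 and -0.24 after 8 days and 0.98 and -0.02 after 19 days (log2 difference at 8 days -2.43 ± 0.41 SE, limma adjusted p = 0.0239). Other probes of that region were not tested. The one starting at 96174180 overlapped between groups, at -1.37 and -2.43 in E11.5 progenitors and -2.05 and -1.20 after 8 days, and the one starting at 96174257 read -0.30 and 0.06 in E11.5 progenitors and -1.76 and -1.59 after 8 days. On the posterior side of Hoxb9, a region went in different directions by probe. Its brightest probe, at chr11:96114996-96115055, read -0.14 and -0.65 in E11.5 progenitors, 1.06 and 0.74 after 8 days and 2.53 and 2.50 after 19 days (log2 difference at 19 days 2.92 ± 0.25 SE, limma adjusted p = 0.000632). A probe on the same strand starting at 96114843 read -4.03 and -2.28 in E11.5 progenitors, -6.28 and -6.58 after 8 days and -6.86 and -6.91 after 19 days.

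Antisense and noncoding transcripts of the other clusters followed various courses. Hoxa11os, the antisense partner of Hoxa11, read 3.31 and 3.23 in P0 progenitors, against 1.49 and 0.13 in P0 non-progenitors (log2 difference 2.46 ± 0.43 SE, limma adjusted p = 0.0158). It read 1.75 and 2.37 after 19 days, against 3.62 and 3.83 in E11.5 progenitors (log2 difference -1.66 ± 0.43 SE, limma adjusted p = 0.0390). Haglr, a noncoding RNA of cluster D, read 3.66 and 2.62 after 19 days, against 0.46 and 0.37 in E11.5 progenitors (log2 difference 2.72 ± 0.34 SE, limma adjusted p = 0.00254). Hottip, at the posterior end of cluster A, read at the floor on every array, between -6.89 and -6.23. Whether labelling kept the strand is not given in the sources used here, so signal from antisense partners cannot be told apart.

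Hox proteins bind DNA together with TALE homeodomain proteins of the Meis, Pbx and Pknox families, and 9 of these were measured. None passed by limma between the fractions at birth, where 4 had an unadjusted p under 0.05. In P0 progenitors, against E11.5 progenitors, Meis1 and Meis3 were lower, with Meis1 at -1.15 and -0.34 in P0 progenitors against 3.34 and 1.92 in E11.5 progenitors (log2 difference -3.37 ± 0.53 SE, limma adjusted p = 0.0190). After 8 days 2 of 9 fell, Meis2 among them, against 2.04% of all genes called lower. Meis2 read 4.36 and 4.46 in E11.5 progenitors, 1.62 and 1.29 after 8 days and 2.46 and 1.54 after 19 days (log2 difference at 8 days -2.95 ± 0.30 SE, limma adjusted p = 0.00497). After 19 days 4 of 9 fell (Meis2, Pbx2 and Pbx4 among them) and 1 rose (Pknox2, log2 difference 1.68 ± 0.40 SE, limma adjusted p = 0.0277). Over all genes 9.61% were then called lower and 7.23% higher. Pbx3 and Pknox1 passed in no comparison.

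Polycomb proteins hold Hox genes silent and trithorax proteins keep them active, and 12 of these regulators were measured. Cbx2 alone passed between the fractions at birth, at 0.86 and 0.44 in P0 progenitors against -1.40 and -0.95 in P0 non-progenitors (log2 difference 1.82 ± 0.33 SE, limma adjusted p = 0.0176). None passed by limma in P0 progenitors or in 8-day culture against E11.5 progenitors, where 3 and 4 had an unadjusted p under 0.05. After 19 days 3 of 12 fell, against 9.61% of all genes called lower. Ezh2, the methyltransferase of the Polycomb complex, read 2.32 and 2.54 in E11.5 progenitors, 1.67 and 1.49 after 8 days and -1.49 and -0.72 after 19 days (log2 difference at 19 days -3.53 ± 0.33 SE, limma adjusted p = 0.000848). At 19 days Cbx2 fell by 2.69 and Bmi1 fell by 0.97. The trithorax gene Kmt2a and the Polycomb gene Eed passed in no comparison.

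Of 9 caudal and axial regulators of Hox genes, 4 were tested. Cdx1, Cdx2 and Cdx4, which switch on Hox genes in the tail bud, were well above background on both arrays of no group, as were Wnt3a and T. Rarg, a retinoic acid receptor, was well above background on neither E11.5 array and was at least 6.54-fold higher in P0 progenitors (limma adjusted p = 0.00843), at least 8.29-fold higher after 8 days (limma adjusted p = 0.00564) and at least 21.2-fold higher after 19 days (limma adjusted p = 0.000556). Of 12 tested neighbours of the clusters, 2 fell after 8 days, against 2.04% of all genes. After 19 days 2 fell and 1 rose, against 9.61% and 7.23% of all genes. Skap1, beside cluster B, read -0.63 and -0.61 in E11.5 progenitors, -6.36 and -5.38 after 8 days and -4.82 and -4.53 after 19 days. It was at least 12-fold lower at 8 days (limma adjusted p = 0.00195) and 4.06 log2 units lower at 19 days (limma adjusted p = 0.00110). Lnpk, beside cluster D, was the other neighbour that fell at 8 days, while Evx2 next to Hoxd13 passed in no comparison.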

How the data were processed

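The deposited intensity values are background-subtracted processed signals that the authors obtained with Agilent Feature Extraction 11.5.1.1, per the submitters' processing notes. Per the labels' protocols, RNA of sorted cells was amplified before Cy3 labelling, which can widen the spread of dim probes. One table of P0 progenitors had been saved again with shortened values and altered gene names, so names came from an E11.5 array. Log2 values of the deposited signals, minus each array's 75th percentile over non-control spots, were averaged per probe after outlier spots were dropped. Each gene was read by its brightest probe, and tested where some group had a probe of it above background on both arrays. limma 3.58.1 in R 4.3.3 (with version 1.17.8 of data.table) fitted all 10 arrays with an intensity trend, 2-sided, with Benjamini-Hochberg adjustment over 26276 genes at 0.05. Sequences and figures used Python 3.11.15, pandas 2.3.3 and matplotlib 3.10.9. On simulated data for 19 days against E11.5, limma called 7 of 67 genes shifted by 1 log2 unit, 14 of 67 at 2 units and 31 of 66 at 3 units, and 4 of its 56 calls were false. Few genes were shifted there, while 4423 genes passed in the data. The adjusted threshold was therefore stricter in the simulation, and its recovery rates do not carry over to the data. Hox genes called in any comparison are given on every array and the others by ranges and counts, and each gene list by its called members and up to 2 others. The members and lists were chosen with earlier results of these data known. Some genes and sequences are not reported here.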

Additional observations from a re-analysis of the deposited data

How the results depend on the processing

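All 27 Hox calls kept their direction under every alternative tried. Quantile normalization in place of scaling cost the call of Hoxa10 at 19 days alone. Without the intensity trend the calls of Hoxa6, Hoxa10 and Hoxa11 between the fractions at birth were lost. Those of Hoxa10 and Hoxc9 at 19 days were lost as well. Of 392 recomputed values 320 still passed, 72 did not and 0 reversed, and 12 calls passed whichever array of the compared groups was left out. For P0 progenitors against E11.5 progenitors the count of 1 became 0 by limma when genes had to be above background on all arrays (3 at an unadjusted p under 0.05), 0 in a fit of only the 4 arrays compared (5 unadjusted) and 2 with slide as a block, and ranged from 0 to 1 with 1 array left out. Over all genes the count of 1036 was 811, 436 and 1067 in those fits and 118 to 869 with 1 array left out. For P0 progenitors against P0 non-progenitors the count of 10 ranged from 4 to 6 with 1 array left out, and that of 2206 over all genes from 610 to 863. For 8 days against E11.5 the count of 3 was 0 in the fit of 4 arrays (12 unadjusted), where 0 of all genes passed, and ranged from 1 to 2 with 1 array left out, while the count of 1264 over all genes ranged from 366 to 893. For 19 days against E11.5 the count of 10 was 1 with slide as a block, 4 in the fit of 4 arrays and 7 to 13 with 1 array left out, while that of 4423 over all genes was 1491, 1300 and 2368 to 3399. For 19 days against 8 days the count of 3 was 0 on slide 2 alone (8 unadjusted), 0 in the fit of 4 arrays (6 unadjusted) and 3 to 5 with 1 array left out, while that of 2123 over all genes was 0, 0 and 875 to 1754. Fits of fewer arrays have fewer degrees of freedom, and the cause of the other shifts was not tested. The share of all genes at an unadjusted p under 0.05 is not given here. Counts of Hox or listed genes at that cut therefore cannot be set against it. Deviations from the group means were not shared by replicates of the same number, over all genes (correlations of -0.0137 to 0.0283). That cannot show whether such replicates came from the same sort or litter. With the replicate number as a block the Hox counts were 9 for the fractions at birth and 1 for birth against E11.5. They were 4 at 8 days, 10 at 19 days and 3 for 19 days against 8 days. The counts of all genes with that block are not given here, so its Hox counts cannot be set against a share of all genes. Dim probes limit Hoxb8, Hoxc11 and Hoxd1, which were near background on several arrays.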
